A study of Rattus norvegicus with 15 samples.

Results

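The caveolin genes Cav1, Cav2 and Cav3, the cavin genes Cavin1, Cavin2, Cavin3 and Cavin4, and the partner genes Ehd2 and Pacsin2 were followed in the rat myoblast line H9c2. The 9 genes were taken by symbol from a count table of 11574 genes, and all 9 had counts in every one of 15 libraries. Cav3 and Cavin4 are the muscle forms and are called the muscle members, and the other 7 are called the general members. In cultures without retinoic acid (RA), Cavin4 rose 5.29-fold, Cav3 2.02-fold and the general member Cavin2 1.49-fold between day 0 and day 14. Cavin1 and Cavin3 fell over the same time, and Cav1, Cav2, Ehd2 and Pacsin2 were not called in either direction. With RA, Cav1, Cav2, Cavin1, Cavin4, Ehd2 and Pacsin2 were lower, and no member was called higher.

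Caveolae are small flask-shaped pits of the plasma membrane, rich in cholesterol, that are abundant in muscle, endothelium and fat. Caveolins sit in the inner leaflet as hairpin proteins, cavins assemble on them from the cytosol as a coat, and proteins at the neck hold the pit in place. In muscle, caveolae buffer membrane tension, and caveolin-3 and cavin-4 take part in the formation of the transverse tubules.

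H9c2 is an established line that was derived from embryonic rat heart ventricle, and the labels give its genotype as WT, its tissue as heart myocardium and its cell type as myoblast. The titles name H9c2 for all samples, but the cell line label carries a different number after H9c in 12 of the 15, and H9c2 was taken for all. Group T0 was sampled at day 0, T7-RA and T14-RA after 7 and 14 days in medium of lowered serum, and T7+RA and T14+RA after the same days with 1 µM all-trans RA added daily from a stock in DMSO. The sources used here do not say whether the cultures without RA received DMSO alone. Each group held 3 libraries, which the study describes as biological replicates of the 1 line.

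The totals of the 15 libraries lay between 508397 and 1030820 counts. Pairs of T0 libraries differed more than pairs of the other groups, with a chi-square per gene of 2.06 to 3.09 against 1.07 to 2.04. Of 7 cardiac muscle markers, 6 (Myh6, Myh7, Nppa, Nkx2-5, Tnni3 and Ryr2) were not among the genes analysed here, and Gata4 lay between 6.90 and 21.6 CPM (counts scaled to a common library size by the trimmed mean of M-values). Of 8 skeletal muscle markers, 6 were in the table, and their summed level was 226 to 266 CPM in T0, 1825 to 2166 CPM for T7-RA, 5862 to 6147 CPM for T14-RA, 1018 to 1190 CPM for T7+RA and 2461 to 2866 CPM for T14+RA. Of this cardiac list only Gata4 therefore bears on the labelled heart tissue, and cardiac genes outside the list were not used for this check. The embryonic myosin gene Myh3 made up most of the summed skeletal level at day 14. Of the markers of other cell types rich in caveolae, the endothelial Tek stayed at or below 6.29 CPM, with the other 5 endothelial and all 5 adipocyte markers not among the genes analysed here. All 5 smooth muscle markers were present at a summed 15548 to 17043 CPM in T0 and 3471 to 5460 CPM in the 4 later groups, although Myh11, the defining marker, did not exceed 16.9 CPM. Of 6 fibroblast markers, 4 were present, with summed levels from 18455 to 38765 CPM, almost all of it from the collagen gene Col1a1, and none of 3 immune markers was among the genes analysed. Single fibroblast markers moved with the same comparisons as the members. Postn was at 1201 to 1629 CPM in T0, 496 to 685 CPM in T14-RA and 7.72 to 14.5 CPM in T14+RA, and Dcn had no counts in T0 and was at 42.5 to 56.5 CPM in T14-RA and 96.5 to 154 CPM in T14+RA. Thy1 was lower with RA at both days without overlap, and the part of these shifts in the RA changes of the members was not tested.

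Per transcript length, the members spanned a wide range of levels. TPM, a level per transcript length scaled to the same total in every library, was computed from the counts and the transcript size listed beside each gene, for which no unit or rule is given. In T0, Cavin3 was highest at 847 ± 69.6 TPM (SD, n = 3 for this and every later group value) and Cavin1 followed at 765 ± 47.3 TPM. The libraries of this pair overlapped, so their order in T0 was not resolved. Ehd2 at 409 ± 43.7 TPM, Cav1 at 244 ± 28.8 TPM and Cavin2 at 168 ± 14.0 TPM came next, each apart from its neighbours. Pacsin2 at 108 ± 26.0 TPM overlapped Cav3 at 85.6 ± 28.3 TPM, and Cavin4 at 33.5 ± 15.2 TPM overlapped Cav2 at 21.8 ± 11.7 TPM. Averaged over all libraries, Cavin1 and Cavin3 ranked above 97.7% of the genes in the table, whereas Cav2 ranked at the 41.1 percentile. In T14-RA, Cavin4 had moved from the eighth to the sixth place at 183 ± 10.2 TPM and overlapped Cav3 at 169 ± 13.9 TPM, and Cavin1 at 514 ± 8.29 TPM led Cavin3 at 402 ± 11.3 TPM without overlap. In T14+RA the order of that leading pair was the opposite, with Cavin3 at 435 ± 22.4 TPM above Cavin1 at 314 ± 11.8 TPM.

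**Figure D1:**
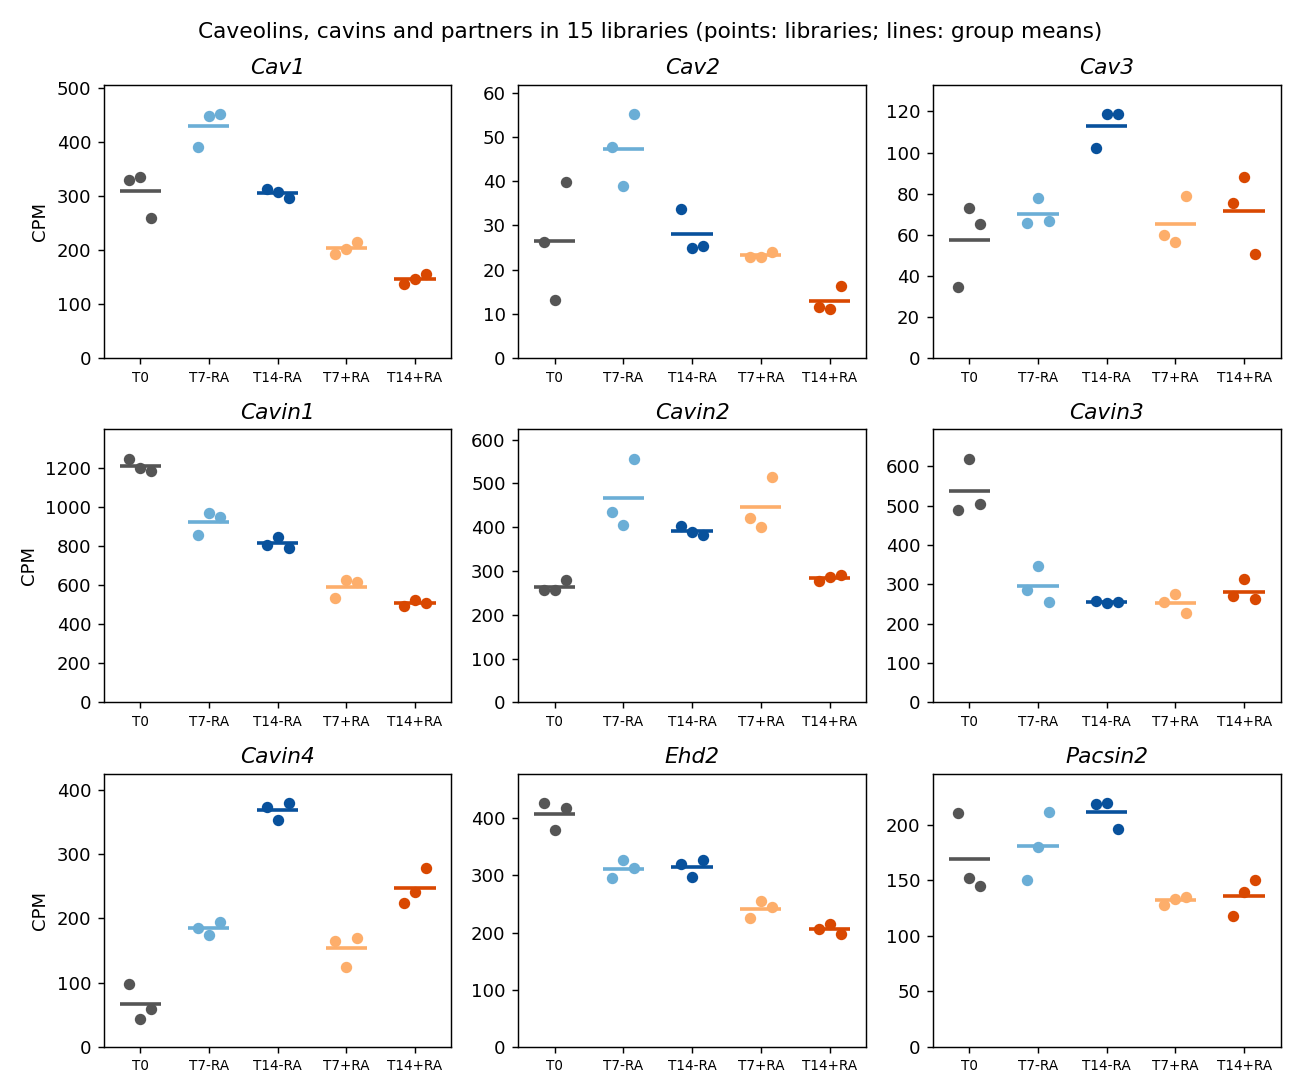
CPM (linear axis from 0, a separate scale for each gene) of the 9 genes in each of the 15 libraries; points are libraries and horizontal lines are the means of 3 libraries. Cavin4 climbs from T0 to T14-RA, Cavin1 and Cavin3 start highest in T0, and Cav1 has its lowest libraries, 136 to 156 CPM, in T14+RA.

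Caveolin-1 is the scaffold that caveolae outside striated muscle cannot form without, and caveolin-2 associates with it. Cav1 and Cav2 are neighbours on the rat chromosome in the RefSeq annotation, with no coding gene between them, and both lie in band 4q21 in the deposited annotation. The sequences before their starts are shown because both genes were lower with RA. They were read from RefSeq (build GRCr8, 250 bases before each start, on the gene's strand), where Cav1 has 2 starts, and the counts were made on another build, Rnor_6.0. Capitals mark matches on either strand to the searched letters AGGTCA or GGTTCA (half-sites of the RA receptor), CAGCTG (an E-box), CATTCC (M-CAT) or GGGCGG (bound by Sp and KLF factors).
Cav1, first start, chr4:46606288-46606537, plus strand: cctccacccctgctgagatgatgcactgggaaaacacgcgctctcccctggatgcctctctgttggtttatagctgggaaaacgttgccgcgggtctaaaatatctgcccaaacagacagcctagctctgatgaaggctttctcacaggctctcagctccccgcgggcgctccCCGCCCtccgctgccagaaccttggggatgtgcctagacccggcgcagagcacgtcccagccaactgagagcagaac
Cav1, second start, chr4:46607722-46607971, plus strand: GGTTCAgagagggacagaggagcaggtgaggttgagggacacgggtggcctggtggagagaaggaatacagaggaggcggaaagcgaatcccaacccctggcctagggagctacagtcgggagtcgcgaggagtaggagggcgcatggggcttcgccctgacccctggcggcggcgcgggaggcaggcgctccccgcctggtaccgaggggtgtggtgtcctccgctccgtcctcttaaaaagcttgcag
Cav2, chr4:46582431-46582680, plus strand: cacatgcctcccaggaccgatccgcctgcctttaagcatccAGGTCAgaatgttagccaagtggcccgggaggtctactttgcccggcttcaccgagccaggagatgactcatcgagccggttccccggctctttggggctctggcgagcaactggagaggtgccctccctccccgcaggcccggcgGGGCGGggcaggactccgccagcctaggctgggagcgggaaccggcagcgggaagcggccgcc
The window before the first Cav1 start held the GGGCGG letters at position -77, and the window before the second held GGTTCA at its far end, at -250. The Cav2 window held AGGTCA at -209 and GGGCGG at -63. In windows that ran on to 50 bases past the start, 16.2% of all 33469 RefSeq promoters held AGGTCA, 11.7% held GGTTCA and 33.1% held GGGCGG, so these matches are frequent and are given as a description only. Of the other members called lower with RA, Pacsin2 held AGGTCA at -97 and -32, and Cavin1, Cavin4 and Ehd2 held neither half-site. Cavin2, not called lower with RA, held GGTTCA at -137.

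Cav1 stood at 330, 336 and 260 CPM in the T0 libraries. It reached 391, 449 and 452 CPM in T7-RA and was 314, 308 and 296 CPM in T14-RA. With RA it was 192, 203 and 214 CPM in T7+RA and 136, 146 and 156 CPM in T14+RA. Without RA, Cav1 had its highest libraries at day 7, and every library with RA lay below every library without it, T0 included. The rise from T0 to T7-RA (log2 fold change 0.47, SE 0.11, adjusted p = 9.3e-04) passed the threshold of 0.001 used throughout, but it was lost without any one of 12 libraries (adjusted p up to 0.015, at 0.37 without T0 replicate 3) and under 4 of 8 other settings (adjusted p up to 0.0040), and T14-RA differed from T0 by -0.02 (SE 0.12). The second-week difference of -0.49 (SE 0.11, adjusted p = 0.0012) did not pass. The RA difference was -1.08 at day 7 (SE 0.12, adjusted p = 2.24e-11) and -1.08 at day 14 (SE 0.13, adjusted p = 2.7e-10). The day 14 minus day 7 contrast of these values was 0.00 (95% interval -0.37 to 0.37).

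Cav2 had few reads, with 7 to 40 per library, and its estimates are the least precise of the 9. Its libraries read 26.2, 13.1 and 39.8 CPM in T0, 47.7, 39.0 and 55.2 CPM in T7-RA and 33.6, 24.8 and 25.4 CPM in T14-RA. With RA they read 22.8, 22.8 and 24.0 CPM at day 7 and 11.6, 11.0 and 16.3 CPM at day 14. At each day the libraries with RA lay below those without, while T0 alone ranged from 13.1 to 39.8 CPM. Over both days together, in a model with terms for day 7, day 14 and RA, the RA coefficient of Cav2 was -1.08 (SE 0.22, adjusted p = 1.4e-04), a call that was lost with limma on quantile-normalized values and without either of 2 libraries. At single days its differences of -1.02 (SE 0.28, adjusted p = 0.011) and -1.16 (SE 0.35, adjusted p = 0.017) did not pass the threshold.

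Caveolin-3 is the caveolin of striated and smooth muscle, and cavin-4 is the cavin that binds it in muscle. The sequences before their starts are shown together as the muscle pair, read and marked as above.
Cav3, chr4:147137743-147137992, plus strand: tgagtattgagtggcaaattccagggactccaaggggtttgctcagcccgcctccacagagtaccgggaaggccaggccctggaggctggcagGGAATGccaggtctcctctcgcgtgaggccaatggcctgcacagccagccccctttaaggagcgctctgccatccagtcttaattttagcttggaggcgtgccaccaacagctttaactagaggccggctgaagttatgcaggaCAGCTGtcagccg
Cavin4, chr5:67792182-67792431, plus strand: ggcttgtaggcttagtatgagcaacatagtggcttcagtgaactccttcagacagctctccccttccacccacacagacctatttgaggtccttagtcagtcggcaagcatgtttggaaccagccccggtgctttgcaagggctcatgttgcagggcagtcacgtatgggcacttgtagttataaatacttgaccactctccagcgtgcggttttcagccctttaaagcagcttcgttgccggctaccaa
The Cav3 window held an E-box at -13 and the M-CAT letters, on the other strand, at -157, which 5040 and 4749 of the 33469 promoters held. The Cavin4 window held none of the 5 searched runs of letters. Among the 8 members with a RefSeq promoter, only Cav3 and the general member Cavin2 held the E-box or the M-CAT letters, which in Cavin2 share a base.

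Cav3 read 34.5, 73.2 and 65.0 CPM in T0, 65.6, 77.9 and 66.8 CPM in T7-RA and 102, 119 and 119 CPM in T14-RA. With RA it read 59.9, 56.4 and 78.8 CPM at day 7 and 75.2, 88.0 and 50.8 CPM at day 14. Its high group was T14-RA, which overlapped no other group. The first T0 library was the lowest of the series. From T0 to T14-RA the log2 fold change was 1.02 (SE 0.21, adjusted p = 6.8e-05). Without the first T0 library it was 0.71 (adjusted p = 0.0096), which no longer passed. In the second week without RA the difference was 0.68 (SE 0.19, adjusted p = 0.013) and with RA it was 0.17 (SE 0.21, adjusted p = 0.71). The RA difference was -0.12 at day 7 (SE 0.21, adjusted p = 0.85) and -0.63 at day 14 (SE 0.19, adjusted p = 0.017), and the contrast between these days was -0.51 (95% interval -1.06 to 0.04, adjusted p = 0.66).

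Cavin4 had the largest change of the 9 genes. Its libraries read 97.9, 43.2 and 58.7 CPM in T0, 185, 173 and 195 CPM in T7-RA and 374, 352 and 379 CPM in T14-RA. With RA they read 165, 125 and 170 CPM at day 7 and 224, 240 and 279 CPM at day 14. The groups T0, T7-RA and T14-RA did not overlap, and at each day every library with RA was below every library without it. Cavin4 rose by 1.40 on the log2 scale in the first week (SE 0.17, adjusted p = 2.26e-09) and by a further 1.00 in the second (SE 0.13, adjusted p = 3.4e-08), to 2.40 above T0 (SE 0.16, adjusted p = 1.23e-19). With RA it also rose in the second week, by 0.69 (SE 0.14, adjusted p = 2.7e-04), a call lost without T7+RA replicate 2 (0.55, adjusted p = 0.017) or T14+RA replicate 3 (0.59, adjusted p = 0.0043) and with limma on quantile-normalized values (adjusted p = 0.0069). The RA difference was -0.27 at day 7 (SE 0.15, adjusted p = 0.34) and -0.59 at day 14 (SE 0.13, adjusted p = 5.2e-04). The call at day 14 was lost with limma on quantile-normalized values, with DESeq2 and without any one of 6 libraries, with adjusted p up to 0.020.

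The summed level of the 6 skeletal muscle markers was lowest in T0, highest in T14-RA and lower with RA at each day, as was that of Cavin4. Single markers differed from the sum. Myod1 was highest in T7+RA, at 135, 161 and 149 CPM against 76.3, 91.4 and 95.9 CPM in T7-RA, and its T0 libraries (71.3 to 150 CPM) overlapped T14-RA. The libraries of Ckm and Des with and without RA overlapped at day 14. Whether muscle-like cells were more numerous or held more of these RNAs per cell cannot be told apart in bulk libraries, and the part of this in the changes of Cav3 and Cavin4 was not tested. Among the 3 genes whose log2 CPM over the 15 libraries was most like that of Cavin4 were Chrnd, a subunit of the muscle acetylcholine receptor (Pearson r = 0.97), and Acta1, skeletal muscle actin (r = 0.97). For Cav3 the 3 genes were Pip4p1 (r = 0.86), Rpl37a (r = 0.83) and Prkab2 (r = 0.83), and the r between Cav3 and Cavin4 was 0.53. These likenesses are descriptions over libraries that share groups, chosen from 8379 genes with a mean count of at least 10.

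Cavin-1 is the core cavin, which caveolae of every tissue need. Cavin1 had the most reads of the 9 genes and read 1247, 1197 and 1184 CPM in T0, 855, 968 and 948 CPM in T7-RA and 806, 845 and 791 CPM in T14-RA. With RA it read 532, 626 and 614 CPM at day 7 and 494, 522 and 508 CPM at day 14. The 5 groups followed each other downward in that order without overlap. From T0 to T14-RA Cavin1 fell by 0.57 on the log2 scale (SE 0.09, adjusted p = 7.5e-07), which limma on quantile-normalized values put at -0.33 and did not call (adjusted p = 0.0052). The RA difference was -0.65 at day 7 (SE 0.09, adjusted p = 2.8e-07) and -0.68 at day 14 (SE 0.10, adjusted p = 8.7e-08). Cavin1 overlaps 2 long noncoding genes in RefSeq, and the strand setting of the counting is not given in the sources used here.

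Cavin-2 can lengthen caveolar membranes, and cavin-3 binds protein kinase C delta. Cavin2 rose from 257, 257 and 279 CPM in T0 to 435, 406 and 556 CPM in T7-RA and was 404, 388 and 383 CPM in T14-RA. With RA it was 420, 400 and 514 CPM at day 7 and 278, 286 and 290 CPM at day 14. It was high at day 7 whether or not RA was present, and in T14+RA it was back near its T0 range. The first-week rise without RA was 0.82 (SE 0.12, adjusted p = 1.0e-07), and the second-week fall with RA was -0.64 (SE 0.11, adjusted p = 2.0e-05) against -0.25 without RA (SE 0.11, adjusted p = 0.20). The difference between these 2 second-week values, which is also the day 14 minus day 7 contrast of the RA differences, was -0.40 (SE 0.16, adjusted p = 0.41) and did not pass. Without T7+RA replicate 3 the second-week fall with RA was -0.53 (adjusted p = 0.0024) and was not called, and Cavin2 was also not called for T14-RA against T0 without T0 replicate 1 or T14-RA replicate 1 (adjusted p = 0.0011 and 0.0012).

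Cavin3 read 488, 619 and 505 CPM in T0, 286, 345 and 256 CPM in T7-RA and 257, 252 and 256 CPM in T14-RA. With RA it read 255, 277 and 226 CPM at day 7 and 269, 313 and 263 CPM at day 14. All 12 later libraries lay below all 3 T0 libraries. Cavin3 fell by 0.86 in the first week (SE 0.11, adjusted p = 1.48e-08) and differed from T0 by -1.07 at day 14 without RA (SE 0.12, adjusted p = 1.9e-11). Its RA coefficient was -0.04 (95% interval -0.22 to 0.14, adjusted p = 0.85), the smallest of the 9.

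The summed level of the smooth muscle markers, most of it from Acta2, was lower in the later groups than in T0, as were Cavin1 and Cavin3, whereas Myh11 overlapped between T0 (8.28 to 11.3 CPM) and T14-RA (10.6 to 16.9 CPM). The sum overlapped between the arms at day 7 (4805 to 5358 CPM with RA and 3972 to 5460 CPM without) and was higher with RA at day 14 without overlap (4052 to 4836 CPM against 3471 to 3590 CPM). Smtn went the other way at day 14, at 45.6 to 67.1 CPM with RA against 124 to 147 CPM without. The part of these marker shifts in the changes of Cavin1 and Cavin3 was not tested. The genes most like Cavin3 were Loxl1, Vasp and Pfn1 (r = 0.96, 0.95 and 0.95), and those most like Cavin1 were Vim, the intermediate filament vimentin (r = 0.98), Chst3 (r = 0.98) and Ehd2 (r = 0.98).

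EHD2 is an ATPase that forms rings at the caveolar neck, and PACSIN2 is an F-BAR protein that bends the membrane there. Ehd2 read 426, 379 and 417 CPM in T0, 296, 327 and 312 CPM in T7-RA and 321, 298 and 327 CPM in T14-RA. With RA it read 225, 255 and 245 CPM at day 7 and 205, 215 and 198 CPM at day 14. It stepped down once between T0 and the cultures without RA and was lower again with RA, with no overlap between T0, the groups without RA and those with RA. The RA difference was -0.36 at day 7 (SE 0.11, adjusted p = 0.029) and -0.61 at day 14 (SE 0.12, adjusted p = 4.9e-05), and over both days it was -0.49 (SE 0.08, adjusted p = 1.1e-05). Without T14-RA replicate 1 or 3 or T14+RA replicate 1 the day 14 value fell just short of the threshold, with adjusted p up to 0.0011. The fall from T0 to T14-RA, -0.37 (SE 0.11, adjusted p = 0.0056), did not pass the threshold.

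Pacsin2 read 211, 152 and 145 CPM in T0, 150, 180 and 212 CPM in T7-RA and 219, 220 and 196 CPM in T14-RA. With RA it read 128, 133 and 135 CPM at day 7 and 118, 140 and 150 CPM at day 14. The libraries with RA lay below those without RA of the same day, and neither T7-RA nor T14-RA against T0, nor the second week in either arm, passed the threshold. Over both days the RA coefficient was -0.55 (SE 0.11, adjusted p = 4.8e-05). At day 14 the difference was -0.66 (SE 0.14, adjusted p = 4.3e-04), which was lost under 3 other settings and without any one of 5 libraries.

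**Figure D2:**
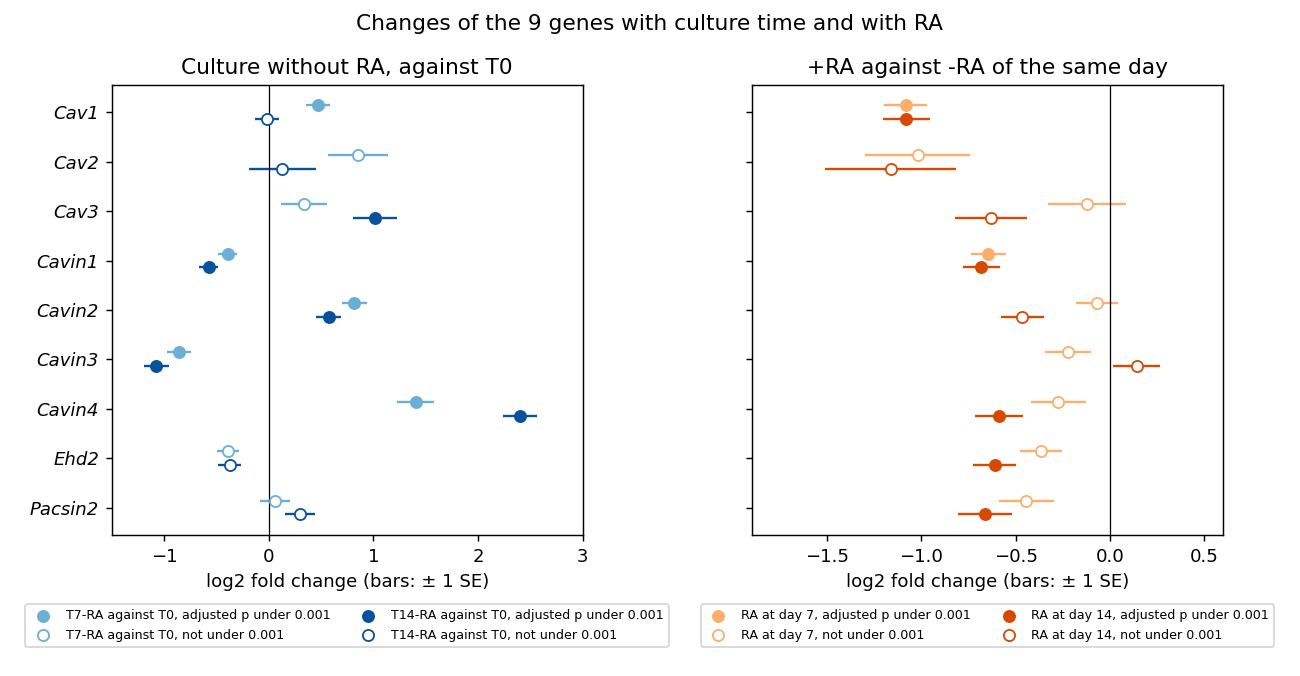
Log2 fold changes of the 9 genes, with bars of ± 1 SE: on the left T7-RA and T14-RA against T0, on the right cultures with RA against those without at day 7 and at day 14; filled points passed an adjusted p of 0.001. On the left Cavin4 stands far to the right (1.40 and 2.40) and Cavin3 to the left (-0.86 and -1.07), and on the right Cav1 and Cav2 lie lowest (-1.02 to -1.16).

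Across the members, changes against T0 went in both directions. The later groups were kept in medium of lowered serum, so culture time and serum cannot be told apart in these changes. From T0 to T14-RA, Cav3, Cavin2 and Cavin4 were called higher and Cavin1 and Cavin3 lower, which is 5 of 9, where 15.7% of all genes were called in either direction. Without T0 replicate 1 the number was 3, as Cav3 and Cavin2 were not called. From T0 to T7-RA, Cav1, Cavin2 and Cavin4 were called higher and Cavin1 and Cavin3 lower, against 8.78% of all genes, and without any one of 12 libraries Cav1 and Cavin1 were not called. Cavin1 was also not called there with quantile normalization (-0.17, adjusted p = 0.19), with library size only (-0.28, adjusted p = 0.018) or among genes with at least 10 counts in every library (-0.35, adjusted p = 0.0019). In the model over both arms the day 7 coefficient was called for 4 members (8.73% of all genes) and the day 14 coefficient for 4 (17.3% of all genes). The median change of the members was 0.13 at day 14 and 0.34 at day 7, beside 0.04 and 0.02 over all genes. In the second week 1 member, Cavin4, was called without RA (2.95% of all genes) and 2 members, Cavin2 and Cavin4, were called with RA (4.67% of all genes). The comparisons with T0 share its 3 libraries.

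All called RA changes of the members were downward. In the model over both days 6 of 9 were called lower and none higher, where 3.07% of all genes were called lower and 3.33% higher, and all 9 coefficients were below 0 with a median of -0.49 beside -0.01 over all genes, although that of Cavin3 lay between -0.09 and 0.03 with a library left out. The number called lower was 5 with voom and with DESeq2, 4 with limma on quantile-normalized values, and 4 without T7-RA replicate 3 or T14-RA replicate 1, with Cavin4 and Cav2 the members that lost their call. At day 7, Cav1 and Cavin1 were called lower (1.3% of all genes), and the members' median difference was -0.36. At day 14, Cav1, Cavin1, Cavin4, Ehd2 and Pacsin2 were called lower (2.35% of all genes), and the median was -0.63. The number called at day 14 was 3 with DESeq2 and with limma on quantile-normalized values. It was 2 without T14-RA replicate 1 or 3 or T14+RA replicate 1. At day 14 the libraries with and without RA did not overlap for any of the 9 genes, which was the case for 27.2% of all genes. Cavin3 was the one member with the higher levels under RA, by 0.14 on the log2 scale (SE 0.12, adjusted p = 0.58), which did not pass. At day 7 the libraries did not overlap for 6 members, beside 24.4% of all genes. No member was called for a difference between the RA changes of the 2 days at an adjusted p of 0.05 (0.743% of all genes were), and at an unadjusted p under 0.05 Cavin2 and Cavin3 were, in opposite directions, as were 966 of all 11574 genes.

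The muscle and general members were then set against each other in each library, as the mean log2 CPM of Cav3 and Cavin4 minus that of the other 7 genes. The gap was -2.12 ± 0.07 in T0, -1.29 ± 0.07 after 7 days and -0.24 ± 0.11 after 14 days without RA. With RA it was -0.96 ± 0.22 at day 7 and -0.26 ± 0.17 at day 14. The gap had thus narrowed by day 14 in both arms, and T14+RA and T14-RA differed by -0.02, less than the SD of either group. CPM is not per transcript length, and the general mean includes the low Cav2 (27.9 CPM in T14-RA). The size of the gap therefore does not compare the levels of single genes. The 2 arms reached that gap at different levels. The general members averaged 7.94 ± 0.05 in T14-RA and 7.33 ± 0.07 in T14+RA, and the muscle members 7.70 ± 0.06 and 7.07 ± 0.14, as mean log2 CPM. At day 7 the general members were likewise lower with RA, at 7.63 ± 0.06 against 8.16 ± 0.09, whereas the muscle members at 6.67 ± 0.22 and 6.87 ± 0.04 differed by less than the SD of the RA group. Since Cavin4 carries most of the muscle change and the genes were chosen as a set, these values are given without a test.

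**Figure D3:**
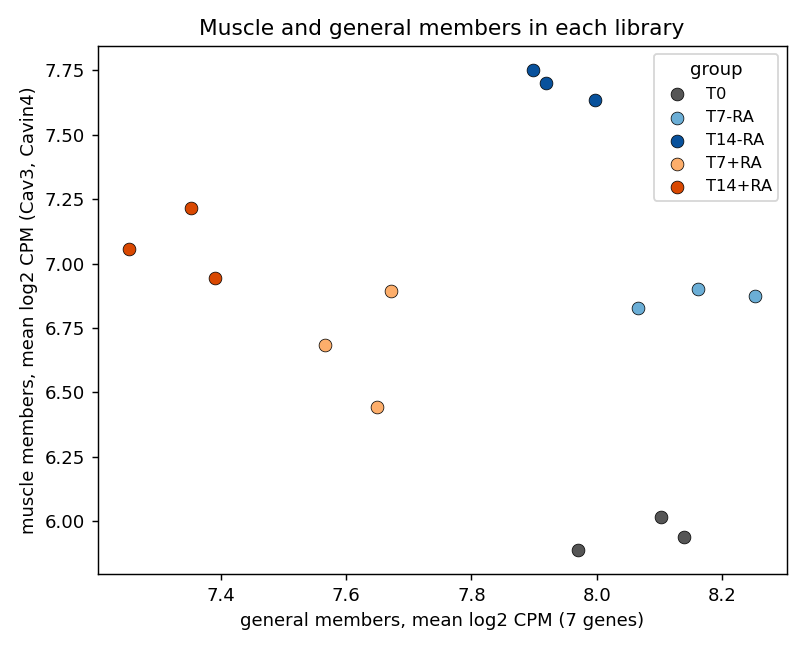
Mean log2 CPM of the 2 muscle members (vertical axis) against that of the 7 general members (horizontal axis), 1 point per library, coloured by group. T0 lies lowest (muscle mean 5.95), T14-RA highest (7.70), and the libraries with RA lie to the left of all others, at general means of 7.63 (T7+RA) and 7.33 (T14+RA).

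Expressed as composition, Cav3 made up 24.3 ± 7.64% of the summed caveolin TPM in T0, 21.7 ± 1.65% for T7-RA and 39.0 ± 2.87% for T14-RA. With RA it made up 34.9 ± 3.23% at day 7 and 45.4 ± 8.44% at day 14. At day 7 the share with RA was above that without in all 3 libraries, while the Cav3 level overlapped between the arms and Cav1 was lower. Cavin4 made up 1.84 ± 0.83% of the cavin TPM in T0, 6.38 ± 0.56% for T7-RA and 13.6 ± 0.59% for T14-RA, and 6.75 ± 1.17% and 11.5 ± 1.37% with RA. Cavin1 fell from 42.2 ± 2.58% of the cavin TPM in T0 to 38.1 ± 1.15% in T14-RA and 30.0 ± 0.62% in T14+RA. These shares depend on the listed transcript sizes: by counts alone Cav3 made up 14.7% in T0 and 25.3% in T14-RA, and Cavin4 3.21% and 20.2%.

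Cavin RNA exceeded caveolin RNA in every library. The ratio of summed cavin to summed caveolin TPM was 5.17 ± 0.17 in T0, 2.97 ± 0.08 for T7-RA and 3.10 ± 0.06 for T14-RA. With RA it was 4.10 ± 0.30 at day 7 and 4.61 ± 0.32 at day 14. In every library the ratio was lower after culture without RA than in T0, and the libraries with RA lay above those without RA of the same day. The T14+RA libraries (4.39 to 4.98) overlapped T0 (4.97 to 5.30). The summed TPM of all 9 genes was 2682 ± 54.2 in T0, 2416 ± 156 for T7-RA and 2232 ± 38.8 for T14-RA, and 1785 ± 74.7 and 1562 ± 44.2 with RA at the same days. Every library with RA had less of this RNA than every library without it.

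**Figure D4:**
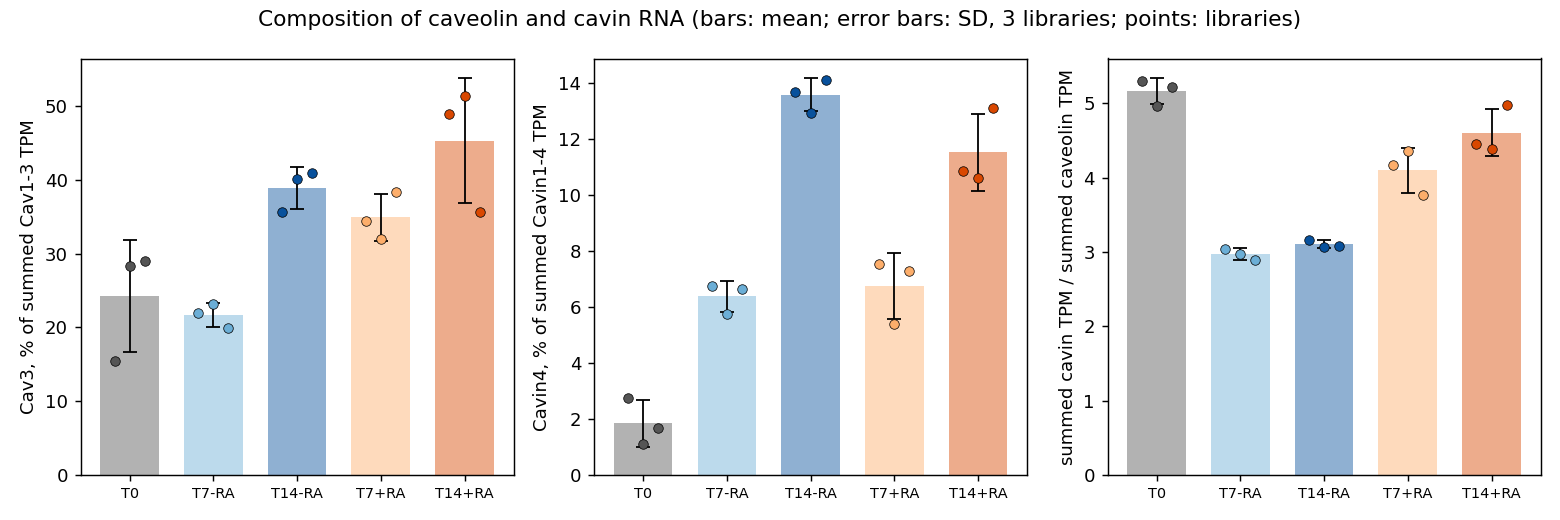
Composition per library: Cav3 as percent of summed Cav1 to Cav3 TPM, Cavin4 as percent of summed Cavin1 to Cavin4 TPM, and the ratio of summed cavin to summed caveolin TPM; bars are means of 3 libraries, error bars are SD, points are libraries, and the axes start at 0. The Cavin4 share is 1.84% in T0 and 13.6% in T14-RA, and the cavin to caveolin ratio is lowest in T7-RA and T14-RA (2.97 and 3.10).

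Among themselves the members did not form 1 block. Over the 15 libraries the r of log2 CPM was 0.98 between Cavin1 and Ehd2, 0.82 between Cavin1 and Cav1 and 0.77 between the neighbours Cav1 and Cav2. It was -0.84 between Cavin3 and Cavin4, which fell and rose against T0. All of these rest on the same 5 groups. The genes most like Cav1 were Lpar1, Galnt16 and Mapk3 (r = 0.94, 0.93 and 0.92), those most like Cav2 included Plagl1 and Slc7a11 (r = 0.93 and 0.91) and those most like Cavin2 were Slc30a1, Mob4 and Trim59 (r = 0.88, 0.88 and 0.87). For Ehd2 they were Lmna (r = 0.98), Septin8 (r = 0.98) and Cavin1, and for Pacsin2 AABR07068316.1, Adamts1 and Aqp1 (r = 0.89, 0.88 and 0.87).

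Of 9 listed relatives of the neck proteins 8 were in the table. The T14 coefficient was called for 5 of them, 3 upward and 2 downward, beside 17.3% of all genes in either direction. Pacsin3, the PACSIN of muscle, rose from 54.0 ± 11.3 CPM in T0 to 268 ± 36.4 CPM in T14-RA (T14 coefficient 2.25, SE 0.17, adjusted p = 2.64e-17), and its RA coefficient was -0.89 (SE 0.11, adjusted p = 3.5e-09). Ehd4, a relative of Ehd2, instead rose with RA, to 684 ± 70.8 CPM in T14+RA against 370 ± 70.7 CPM in T14-RA (RA coefficient 0.90, SE 0.08, adjusted p = 4.5e-13). Flna, the actin crosslinker filamin A that ties caveolae to stress fibres, fell from 10138 ± 1274 CPM in T0 to 3210 ± 381 CPM in T14-RA (T14 coefficient -1.70, SE 0.09, adjusted p = 4.6e-23) and was lower with RA (-0.50, SE 0.07, adjusted p = 1.3e-07). Dnm1, a dynamin, rose with a T14 coefficient of 2.59 (SE 0.51, adjusted p = 4.2e-05) on only 7 counts in T0. The RA coefficient was called for 3 of the 8 (6.39% of all genes in either direction), and their median of -0.10 lay nearer to that of all genes than the members' -0.49.

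Of 11 listed raft and caveolin-associated signalling genes 9 were in the table, and none was called for the T7 coefficient. The T14 coefficient was called for Src alone, a kinase that phosphorylates caveolin-1 (-0.81, SE 0.16, adjusted p = 4.2e-05), beside 17.3% of all genes, and the RA coefficient for Stom alone, the raft protein stomatin (1.51, SE 0.30, adjusted p = 9.7e-05), beside 6.39% of all genes. The flotillin genes Flot1 and Flot2, which mark rafts without caveolae, passed no threshold and read 77.2 ± 6.52 and 69.0 ± 6.98 CPM in T0 and 78.4 ± 15.2 and 89.1 ± 5.47 CPM in T14+RA. The median RA coefficient of the 9 was 0.17.

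Of 9 listed partners of caveolin-3 and the muscle membrane 8 were in the table, and 4 were called higher and 1 lower by the T14 coefficient, beside 17.3% of all genes in either direction. Trim72, the membrane repair protein MG53 that works with caveolin-3, had no counts in the 3 T0 libraries, 10.1 ± 1.94 CPM in T7-RA and 58.7 ± 9.68 CPM in T14-RA. Against a floor of 3 counts over the T0 group this is at least 33.9-fold higher in T14-RA. Bin1, a membrane-bending protein of transverse tubules, rose from 78.8 ± 9.84 to 326 ± 30.2 CPM (T14 coefficient 2.00, SE 0.15, adjusted p = 1.9e-17), and Dmd, dystrophin, rose from 38.3 ± 5.21 to 82.4 ± 14.6 CPM (1.08, SE 0.22, adjusted p = 5.6e-05). The RA coefficient of these genes was called upward for Dysf, dysferlin (0.68, SE 0.08, adjusted p = 2.6e-09), and for Dag1, dystroglycan (0.64, SE 0.08, adjusted p = 2.0e-09), and downward for none, where 3.33% of all genes were called upward. The muscle membrane partners had a median RA coefficient of 0.18, while Cav3 and Cavin4 had coefficients of -0.40 (SE 0.15, adjusted p = 0.053) and -0.45 (SE 0.10, adjusted p = 8.7e-04). The Cavin4 call was lost without any one of 9 libraries and under limma and DESeq2, with adjusted p up to 0.010.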

How the data were processed

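RNA of 15 H9c2 libraries was sequenced by the authors (stranded mRNA kit, paired reads). Per the submitters' processing notes, reads were mapped with HISAT2 to Rnor_6.0 and counted with featureCounts. Versions, annotation release and strand setting are not given in the sources used here. The authors deposited raw counts per gene, without normalization, for genes whose counts summed to more than 20 over the libraries. Groups and replicate numbers came from the labels. From the counts, edgeR 4.0.16 (R 4.3.3, TMM, robust quasi-likelihood test) was fitted on all 11574 genes, with the study's T7, T14 and RA terms and with 1 mean per group. P-values were adjusted by Benjamini-Hochberg over all genes, and a gene was called at an adjusted p under 0.001 (0.05 for the RA difference between days). An SE is the absolute log2 fold change divided by the square root of F. CPM used TMM, log2 CPM a prior count of 2, and TPM the deposited transcript size. Promoters and neighbours came from RefSeq (GRCr8), matched by symbol for 8 members. Cavin3 has no promoter shown.

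The scripts were tested on simulated counts. Alternatives were limma 3.58.1 (voom, and quantile-normalized log2 values), DESeq2 1.42.0, other scalings and filters, a replicate block and leaving out each library. The named genes were all members, up to 4 called genes of each related list with the largest change, and the 3 genes most alike each member, of which some are not reported here. Members, lists and tests were chosen with earlier results of these data known. Other experiments of the study were not analysed here.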

Additional observations from a re-analysis of the deposited data

How the results depend on the processing

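Of 2150 recomputed member results, 1976 kept their direction and side of the threshold, 94 lost a call, 37 gained one and 43 changed sign. The cause of each change was not tested. At an adjusted p under 0.05, 7 members were called for the T7 term, 3 for T14-RA against T7-RA, 5 for RA at day 7 and 8 for RA at day 14. Limma on quantile-normalized values called 1 member for T14+RA against T7+RA and 3 for RA at day 14, where DESeq2 also called 3. The mean r of deviations was 0.03 for same replicate numbers over 30 pairs (-0.04 to 0.19) and -0.02 for different numbers over 60 pairs (-0.16 to 0.08). Whether the numbers pair the samples was not tested. With the replicate block 2 members were called for T14-RA against T7-RA instead of 1 and 6 for the T14 term instead of 4. It called 5 for the T7 term instead of 4 and 6 for RA at day 14 instead of 5, with the other member counts unmoved. Over all genes it called 1151 for T7-RA against T0 instead of 1016 and 797 for the RA term instead of 740.

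Without 1 library at a time, the number of members called lay between 4 and 6 for the RA term, 3 and 5 for T7-RA against T0, 3 and 5 for T14-RA against T0, 1 and 2 for T14-RA against T7-RA, 1 and 2 for T14+RA against T7+RA, and 2 and 6 for RA at day 14. For RA at day 14 it was 2 without T14-RA replicate 1 or 3 or T14+RA replicate 1, and 3 without T14-RA or T14+RA replicate 2. For T14-RA against T0 it was 3 without T0 replicate 1. For T7-RA against T0 it was 3 without any one of 12 libraries, where Cav1 and Cavin1 were no longer called. The single call for T14-RA against T7-RA became 2 without T0 replicate 2 or 3 or T14+RA replicate 3, and T14+RA against T7+RA kept 1 of 2 without T7+RA replicate 2 or 3 or T14+RA replicate 3. The RA calls of Cav1 and Cavin1 at both days held under every alternative tried. The muscle minus general gap of T14-RA against T0 lay between 1.83 and 1.94.

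All 43 sign changes were in differences that were not called. For the Cav1 T14 term and T14-RA against T0 the values were 0.091 and 0.094 with quantile normalization, 0.088 and 0.084 with library size only and 0.042 and 0.042 with at least 10 counts in every library. For the Cav1 RA difference between days they were -0.0045 by voom, -0.011 by quantile normalization, -0.0032 by DESeq2, -0.0040 with relative log expression factors and -0.0067 with at least 10 counts. With a library left out, the ranges were -0.11 to 0.052 for the Cav1 T14 term and -0.11 to 0.051 for Cav1 in T14-RA against T0, -0.052 to 0.070 for the Cav1 RA difference between days, -0.18 to 0.45 for the Cav2 T14 term, -0.15 to 0.48 for Cav2 in T14-RA against T0, and -0.30 to 0.023 for the Cav2 RA difference between days. They were -0.11 to 0.017 for the Cavin1 RA difference between days, -0.18 to 0.086 for Cavin2 RA at day 7, -0.086 to 0.033 for the Cavin3 RA term, -0.019 to 0.054 for Ehd2 in T14-RA against T7-RA, -0.058 to 0.28 for Pacsin2 in T7-RA against T0 and -0.069 to 0.13 for Pacsin2 in T14+RA against T7+RA. Library size only moved the median of all genes to 0.13 for the T7 term and 0.15 for the T14 term. Cav2, with 7 counts in its lowest library, is the member that depth limits most.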
